A study of Mus musculus with 64 samples.

Results

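The genes described here encode the proximal machinery of the T cell receptor, from the CD3 chains to the first enzymes, adaptors and calcium channels. The 39 members were chosen by gene symbol from textbook knowledge of the pathway, and not by a rule on their measured levels, although earlier results of these data were known, out of the 55809 genes in the count tables. They comprise 26 activators, 11 brakes and 2 genes with both roles. The activators fall into 5 receptor components, 15 kinases, adaptors and enzymes, and 6 genes of the calcium and calcineurin branch. All 39 passed the filter on low counts, a mean of at least 10 read pairs over the libraries of a fit, in every comparison. The lowest count of any member in any library was 240 read pairs, for Itpr1, the inositol trisphosphate receptor of the endoplasmic reticulum.

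When the receptor binds its ligand, the kinase Lck phosphorylates the CD3 chains and Zap70 docks on them. Zap70 then phosphorylates the adaptors Lat and Lcp2, which assemble Plcg1, Vav1, Grb2, Sos1 and Nck1. Plcg1 releases calcium and produces diacylglycerol, which acts through Prkcq and Rasgrp1. The brakes act at each step: Csk, held at the membrane by Pag1, inactivates Lck, and the phosphatases Ptpn2, Ptpn6 and Ptpn22 reverse phosphorylation. The ubiquitin ligases Cbl and Cblb and the binding proteins Ubash3a and Ubash3b act on activated receptors and kinases, and the kinases Dgka and Dgkz remove diacylglycerol. Ptprc, or CD45, both frees and restrains Lck, and Cd6 is a receptor with positive and negative roles. Regulatory T (Treg) cells are CD4 T cells that depend on the transcription factor Foxp3, and the signals from their receptor carry them from a resting to an activated state.

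RNA sequencing was done on 64 libraries of sorted mouse cells in 28 groups. In the gain-of-function experiment, heterozygous female mice carried the reversible reporter-null allele Foxp3LSL, in which a Thy1.1 reporter and a stop cassette between loxP sites precede a Foxp3-GFP reporter. The cells that carry it unrecombined have an active Foxp3 locus and no Foxp3 protein and are called Treg "wannabe" cells. One dose of 4-hydroxytamoxifen in animals with Cd4-creERT2 removes the cassette, and GFP+ cells (plusFoxp3) were sorted after 3, 7, 14 or 28 days. Thy1.1+ cells (minusFoxp3) came from treated littermates with a wild-type Cd4 locus. At day 0 neither genotype had been treated, so the libraries labelled plusFoxp3 at day 0 are wannabe cells that carry Cd4-creERT2. All of these were sorted from spleen and lymph nodes as resting or active cells, with 2 libraries for each state, day and genotype. Untreated Foxp3GFP mice gave 2 resting and 2 active GFP Treg libraries.

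In the degron experiment every group carried Foxp3-AID, a Foxp3 protein with a degradation tag, and received 5-ph-IAA for 7 days. The groups named TIR1 also carried ROSA26-TIR1(F74G), whose product degrades the tagged protein in the presence of this drug, and the groups named WT had an unmodified ROSA26 locus. TIR1 was expressed from the CAG promoter after a stop cassette was removed by a Cre driven by Foxp3. Adult heterozygous females gave CD73-negative thymic Treg cells and active (CD62L low) Treg cells of spleen and lymph nodes, with 3 libraries a genotype, and infants, treated from soon after birth, gave Treg cells of spleen and lymph nodes with 4 libraries a genotype. Per the study's methods the infants were hemizygous males, so they differ from the adults in sex and in the number of Foxp3 alleles as well as in age. The labels do not give an age in days for any group or say whether animals were pooled, so the p-values measure the spread between these samples.

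Library totals ranged from 27753211 to 34029692 reads in the 12 adult degron libraries, from 33704114 to 55801009 reads in the 8 infant libraries, and from 35097257 to 57419138 reads in the other 44. Levels are given as CPM, a gene's reads scaled to the reads counted in its library, and comparisons as log2 fold changes from edgeR's quasi-likelihood test with the Benjamini-Hochberg adjusted p over all genes tested. A gene was called when its adjusted p was under 0.05. In bulk RNA, fewer cells of a type and less RNA per cell cannot be told apart. Summed markers of B cells, myeloid cells, CD8 and NK cells, double-positive thymocytes and red cells reached at most 39.7 CPM for any list in the minusFoxp3 and treated plusFoxp3 libraries, while T cell markers, which include CD3 genes and Cd4, summed to at least 6050.2 CPM.

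The targeted gene was checked first. Foxp3 lay between 44.3 and 81.5 CPM in the minusFoxp3 and day 0 libraries, between 426 and 615 CPM in the treated plusFoxp3 libraries and between 635 and 817 CPM in GFP Treg cells. The degron acts on the Foxp3 protein. Foxp3 RNA was 76.7 to 93.4 CPM in active TIR1 and 99.95 to 127 CPM in active WT libraries, without overlap, and overlapped in thymus (144 to 168 against 144 to 181 CPM) and in infants (321 to 373 CPM in the libraries titled TIR1 against 297 to 424 CPM). Il2ra, the receptor chain CD25, was 279.7 to 305 CPM in active TIR1 against 409 to 504 CPM in active WT libraries, and overlapped in thymus (325 to 369.8 against 353 to 485 CPM) and in infants (347 to 494 against 388 to 689 CPM). No group was assigned from these values. The library names inside the 12 adult degron files go against the sample each file is attached to, and the names inside the files were used; with the attachment every TIR1 difference changes sign. In all 8 infant samples the title and the genotype label name opposite genotypes, and the names inside the files go with the titles. The infant groups are named here by their titles, as titled TIR1 or titled WT, and the sign of every infant difference is uncertain. Cd4 is a further difference between genotypes: it was 0.81 lower on the log2 scale in treated resting plusFoxp3 cells (SE 0.08, edgeR adjusted p = 2.0e-05) and 0.80 lower in active ones (SE 0.09, edgeR adjusted p = 4.3e-05), and Cd4-creERT2 occupies this locus in those animals. In the untreated day 0 plusFoxp3 libraries Cd4 was 0.32 lower in resting and 0.67 lower in active cells, and edgeR called neither difference.

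Single libraries stood apart for several members. In resting day 0 plusFoxp3 replicate 1, Ptprc was 714 CPM against 2302 CPM in its partner. In active day 7 minusFoxp3 replicate 1, Stim2 was 35.5 CPM against 50.8 CPM, Dgkz 107 CPM against 213 CPM and Lcp2 387 CPM against 596 CPM in replicate 2. In infant titled WT replicate 4, Ubash3b was 49.9 CPM against 97.4 to 105 CPM in the other 3. Over all genes, active degron WT replicate 1 also stood apart, with a chi-square per gene of 131 and 161 against its partners. Between those partners it was 48.8, and between the resting day 0 minusFoxp3 libraries 126. The comparison of active and resting minusFoxp3 cells, the active mean over treated days and the infant comparison are also given without the library concerned. The single-day counts at resting day 0 and active day 7 are given only with it.

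Levels per kilobase of a gene's annotated exons, which is not the length of a single transcript, spanned more than 2 orders of magnitude within the pathway. In active minusFoxp3 libraries Lck was highest at 546 ± 42.4 CPM per kb (SD, n = 10), followed by Cd3d at 396 ± 79.7, Cd3g at 348 ± 64.1 and Cd2, an adhesion and costimulatory receptor, at 314 ± 35.8 CPM per kb. Cd3d, Cd3g and Cd2 were within each other's spread, and Lck lay above them. The lowest were Itpr1 at 2.36 ± 0.51 and Pag1 at 2.32 ± 0.40 CPM per kb, which did not differ beyond their spread. Among the brakes, Dgka led at 119 ± 26.7 CPM per kb, and Ptpn6 at 85.3 ± 9.82 and Ptpn22 at 84.6 ± 13.1 were indistinguishable. Cblb at 7.87 ± 1.79 and Cbl at 7.75 ± 0.59 CPM per kb were a further pair within their spread. In resting minusFoxp3 libraries the order differed mainly in Dgka, which ranked 5 among the members at 312 ± 47.4 CPM per kb, and in Ptpn22, which was at 49.2 ± 6.8 CPM per kb.

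The promoter windows of 4 members that recur below are printed here to show what lies upstream of them: the 250 bases before a RefSeq transcription start, 5′ to 3′ on the gene's strand, GRCm38.p6. Capitals mark matches, on either strand, to TGTTTAC (a forkhead motif), TGTGGT (a Runx motif) or GGAAAA (the core of the NFAT motif). RefSeq windows were at hand for 32 of the 39 members. Ubash3a, at chr17:31207816-31208065 on the plus strand, had no match:
Ubash3a: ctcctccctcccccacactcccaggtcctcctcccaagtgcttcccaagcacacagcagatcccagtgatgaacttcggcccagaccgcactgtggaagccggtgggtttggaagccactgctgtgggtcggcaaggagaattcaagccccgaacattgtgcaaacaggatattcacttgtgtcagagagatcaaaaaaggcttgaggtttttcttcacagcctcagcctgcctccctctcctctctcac
Ubash3b, its paralogue, at chr9:41158063-41158312 on the minus strand, had NFAT core matches that begin 113 and 7 bases before the start:
Ubash3b: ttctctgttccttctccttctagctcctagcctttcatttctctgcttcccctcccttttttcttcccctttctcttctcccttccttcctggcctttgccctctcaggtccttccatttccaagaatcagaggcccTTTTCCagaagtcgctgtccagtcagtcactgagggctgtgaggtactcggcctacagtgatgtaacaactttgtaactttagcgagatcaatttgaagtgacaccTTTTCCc
Ptpn22, at chr3:103860027-103860276 on the plus strand, had Runx matches 165 and 48 bases before the start:
Ptpn22: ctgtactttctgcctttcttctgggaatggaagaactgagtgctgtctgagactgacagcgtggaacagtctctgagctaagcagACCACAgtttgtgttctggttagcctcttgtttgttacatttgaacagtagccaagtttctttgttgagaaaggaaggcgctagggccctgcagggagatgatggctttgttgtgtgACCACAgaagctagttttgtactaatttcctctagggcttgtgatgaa
Grap2, an adaptor that joins Lat to Lcp2, at chr15:80623233-80623482 on the plus strand, was the only member with a forkhead match, 179 bases before the start, and had an NFAT core match 248 bases before it:
Grap2: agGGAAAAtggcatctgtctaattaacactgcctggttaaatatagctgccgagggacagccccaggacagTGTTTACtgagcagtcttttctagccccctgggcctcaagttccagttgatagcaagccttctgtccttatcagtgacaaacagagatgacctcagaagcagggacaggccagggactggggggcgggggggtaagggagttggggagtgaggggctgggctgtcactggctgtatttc

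Over all 32851 promoter windows of this length, 3.166% held the forkhead motif, 14.05% the Runx motif and 20.43% the NFAT core. Counted by gene, with a match in any window of the gene, the shares were 3.537%, 15.92% and 22.93% of 27025 genes. By the same count the Runx motif was found in 4 of the 32 members (Lck, Ptpn22, Sos1 and Zap70) and the NFAT core in 10. A match of letters is a description of the window and not a binding site, and a second RefSeq start of Ptpn22 and of Ubash3b had none of the 3 motifs.

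The first comparison asks how the machinery differs between active and resting cells that lack Foxp3. Across the 5 days, 23 of the 39 members differed between active and resting minusFoxp3 libraries, where 37.9% of all genes tested were called. The brakes fell more than they rose: 7 of 11 were lower in active cells, 2 were higher, and their median log2 fold change was -0.54 against -0.03 over all genes tested. Of the 26 activators, 7 were higher and 6 lower, with a median of -0.12. Of all genes tested, 19.6% were called higher and 18.3% lower. Groups of libraries did not overlap for 13 of the 39 members, or 33.3%, against 10.6% of all genes.

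Pag1, the anchor of Csk, lay between 17.4 and 27.6 CPM in the 10 active libraries (median 21.7) and between 47.0 and 64.7 CPM in the 10 resting ones (median 59.0), with no overlap. It fell by 1.37 on the log2 scale (SE 0.10, edgeR adjusted p = 4.9e-12). Dgka ranged from 279 to 731 CPM (median 581) in active and from 1097 to 1759 CPM (median 1450.1) in resting libraries, and fell by 1.40 (SE 0.12, edgeR adjusted p = 1.1e-10). Csk itself lay between 129 and 177 CPM in active and between 195 and 242 CPM in resting libraries, and fell by 0.54 (SE 0.06, edgeR adjusted p = 5.4e-08). The anchor and the kinase that it holds were thus both lower in every active library than in any resting one. Ptpn6, the phosphatase SHP-1, ranged from 166 to 263 CPM (median 244) against 356 to 465 CPM (median 406) and fell by 0.75 (SE 0.09, edgeR adjusted p = 9.4e-08). Ubash3a ranged from 113 to 184 CPM (median 151) against 219 to 272 CPM (median 240.2) and fell by 0.65 (SE 0.09, edgeR adjusted p = 1.3e-06). Dgkz and Cbl fell as well, by 0.71 and 0.22, with overlapping groups.

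Ubash3b and Ptpn22 were the brakes that went the other way. Ubash3b lay between 95.7 and 161 CPM (median 123) in active and between 42.8 and 86.4 CPM (median 61.7) in resting libraries, and rose by 1.02 (SE 0.10, edgeR adjusted p = 1.6e-09). Ptpn22, a phosphatase that acts on Lck and Zap70, lay between 413 and 694 CPM (median 575) against 257 to 408 CPM (median 335), and rose by 0.79 (SE 0.09, edgeR adjusted p = 5.2e-08). Neither gene's groups overlapped. Ptpn2 and Cblb were not called.

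Among the activators, Malt1, the paracaspase that carries the signal to NF-kB, had the largest rise: 236 to 384 CPM (median 352) in active against 96.6 to 216 CPM (median 125) in resting libraries, a log2 change of 1.37 (SE 0.14, edgeR adjusted p = 7.9e-09). Itpr1 rose by 0.87 (SE 0.10, edgeR adjusted p = 4.4e-08), from 20.3 to 30.4 CPM in resting to 30.8 to 60.6 CPM in active libraries, which only just did not overlap. Zap70, Stim1, Ppp3ca, Lat and Cd3e rose by 0.46, 0.31, 0.24, 0.23 and 0.21. Cd2 fell by 0.73 (SE 0.07, edgeR adjusted p = 1.0e-09), with 484 to 662 CPM (median 537) against 790.0 to 1105 CPM (median 896) and no overlap. Stim2, a calcium sensor, fell by 0.49 (SE 0.08, edgeR adjusted p = 5.9e-06), with 35.5 to 64.1 CPM against 71.2 to 86.2 CPM. Lck fell by 0.29 (SE 0.05, edgeR adjusted p = 1.5e-05), with 1297 to 1745 CPM against 1791 to 2098 CPM. Orai1, the calcium channel, fell by 0.62, Prkcq by 0.55, Grap2 by 0.46 and, among the genes of both roles, Ptprc by 0.43. The 2 calcium sensors thus moved in opposite directions, Stim1 up and Stim2 down.

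**Figure D1:**
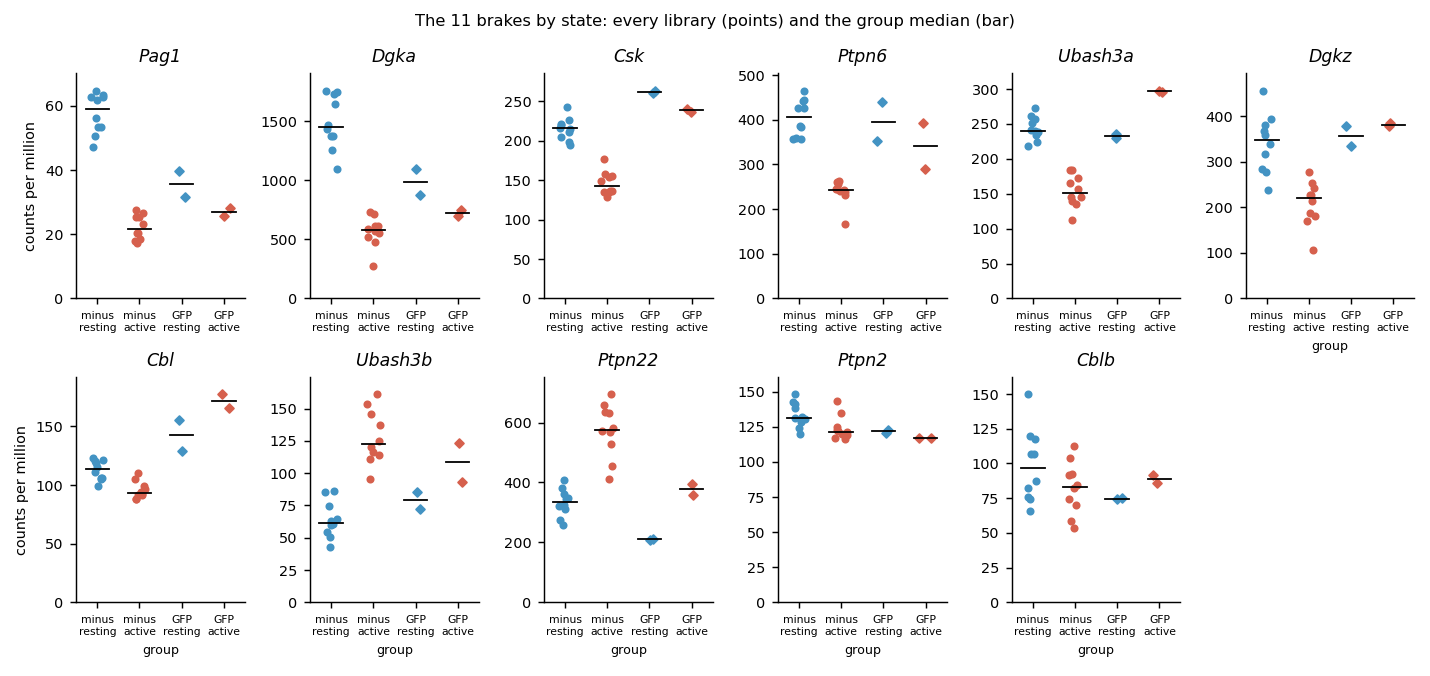
Level of the 11 brakes in CPM, each on a linear axis from 0, with a point for each library and a bar at the group median, in resting and active minusFoxp3 cells (10 libraries each) and resting and active GFP Treg cells (2 each). Pag1, Dgka, Csk, Ptpn6 and Ubash3a are lower, and Ubash3b and Ptpn22 higher, in every active than in any resting minusFoxp3 library. In GFP Treg cells, with 2 libraries a state, only Ptpn22 of the brakes passed the test. Pag1, Dgka and Csk are lower and Ubash3b higher in active GFP Treg libraries too, without overlap, while Ptpn6 overlaps and Ubash3a is higher.

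Leaving out each of the 20 libraries in turn left 22 of these 23 members called in every fit, the exception being Ppp3ca. Resting and active minusFoxp3 libraries with the same number deviated together, so they were also fitted as pairs. In that fit 26 members were called, against 42.4% of genes; Ppp3ca was lost, and Fyn, Plcg1, Ppp3cb and Cblb were called, all lower in active cells. The summed CPM of the 11 brakes was 1616 to 2632 (median 2434) in active and 2916 to 4047 (median 3434) in resting libraries. The lowest active sum was that of day 7 minusFoxp3 replicate 1, and leaving this library out lost the call of Ppp3ca and of no other of the 23 members. The sort by CD62L and CD44 sets the 2 states: markers of resting cells summed to 259 to 621 CPM in active and 2991 to 3826 CPM in resting libraries. Immediate-early genes, which can rise while cells are being prepared, summed to 2882 to 11584 CPM in active and 2365 to 9887 CPM in resting libraries, and their part in these differences was not tested.

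In GFP Treg cells, which have had Foxp3 throughout, 4 of the 39 members differed between the states, against 3.12% of genes tested, with 2 libraries a side. Malt1 was 174 and 251 CPM in the active and 71.1 and 83.7 CPM in the resting libraries, a rise of 1.44 (SE 0.32, edgeR adjusted p = 0.010). Ptpn22 was 359 and 394 CPM against 209 and 211 CPM, a rise of 0.82 (SE 0.21, edgeR adjusted p = 0.023). Zap70 was 212 and 233 CPM against 126 and 152 CPM, a rise of 0.66 (SE 0.17, edgeR adjusted p = 0.032). These 3 genes thus rose with activation in the libraries with Foxp3 as well as in those without it. Grap2 was 38.9 and 62.6 CPM against 80.7 and 96.9 CPM, a fall of 0.83 (SE 0.19, edgeR adjusted p = 0.015). None of the 4 stayed called in all of the fits that left out a library; 0 were left without resting replicate 2 or active replicate 1, 1 without resting replicate 1 and 2 without active replicate 2. With the states paired by number, 5 were called, these 4 and Lcp2, against 6.03% of genes.

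The 11 brakes summed to 2833 and 2905 CPM in active and 2827 and 2968 CPM in resting GFP Treg libraries, so their total overlapped between the states. Their median log2 difference was 0.07, against 0.00 over all genes tested. Whether the step from resting to active differed between GFP Treg and day 0 minusFoxp3 cells was tested as their state difference. Of the members, 3 passed, against 2.43% of genes tested. These cells differ in mouse line and Foxp3 allele as well as in Foxp3, and these cannot be told apart here. Ubash3a had a difference of 1.14 (SE 0.29, edgeR adjusted p = 0.029), Pag1 of 1.17 (SE 0.31, edgeR adjusted p = 0.035) and Cd2 of 0.95 (SE 0.22, edgeR adjusted p = 0.014). In levels, Ubash3a at day 0 was 135 and 145 CPM in active and 219 and 272 CPM in resting minusFoxp3 cells, against 296 and 298 CPM in active and 230.3 and 235 CPM in resting GFP Treg cells. The order of the states was thus turned in Ubash3a. Pag1 was 18.5 and 23.1 CPM against 61.8 and 63.5 CPM without Foxp3, and 25.7 and 28.3 CPM against 31.6 and 39.8 CPM in GFP Treg cells, so it was lower in active cells of both kinds. The untreated active day 0 libraries labelled plusFoxp3, which lack Foxp3, had Ubash3a at 179 and 194 CPM. In the same libraries Pag1 was 25.7 and 29.4 CPM and Cd2 544 and 570 CPM. With the states paired, 4 members were called, these 3 and Dgka, against 4.25% of genes. Each of the 3 calls was lost in at least 4 of 8 fits that left out a library, and between 0 and 2 remained called; 0 remained without active day 0 minusFoxp3 replicate 2 or active GFP Treg replicate 1, and 1 without resting day 0 minusFoxp3 replicate 1 or 2, resting GFP Treg replicate 1 or 2, or active GFP Treg replicate 2.

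The next comparison asks what the return of Foxp3 does to the machinery over time. On single days, with 2 libraries against 2, few members passed. In resting cells 0 of 39 were called at days 0, 3, 7, 14 and 28 by edgeR, against 0.00487%, 0.0487%, 0.0585%, 0.268% and 0.945% of genes tested. At an unadjusted p under 0.05 there were 9, 3, 3, 3 and 5 members, against 10.8%, 11%, 5.71%, 8.87% and 8.9% of genes. DESeq2 called 1 member, Stim2 at day 14, and none on the other days, against 0.219%, 1.07%, 0.716%, 1.43% and 2.26% of genes. In active cells 0 were called at days 0, 3 and 7, against 0.00481%, 0.274% and 0.568% of genes tested. At an unadjusted p under 0.05 there were 1, 2 and 15 members, against 4.58%, 7.4% and 13% of genes, and DESeq2 called 0, 0 and 2, against 0.0818%, 1.27% and 2.32%. The 15 members at active day 7 are to be read beside the library that stands apart: active day 7 minusFoxp3 replicate 1. When the other replicate was left out, so that replicate 1 alone stood for its group, 15 members were called against 11.7% of genes. Likewise, without replicate 2 of the resting day 0 plusFoxp3 group, 10 members were called against 10.2% of genes, with replicate 1 alone.

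At active day 14, 1 member was called against 0.732% of genes: Ptpn22 was 349 and 388 CPM in plusFoxp3 and 659 and 694 CPM in minusFoxp3 libraries, a fall of 0.87 (SE 0.18, edgeR adjusted p = 0.035). This call was lost whichever of the 4 libraries was left out, with log2 changes from -0.94 to -0.80, and DESeq2 called 2 members, against 2.49% of genes. At active day 28, 1 was called against 1.85% of genes: Cd2 was 980.5 and 1028 CPM in plusFoxp3 and 491 and 502 CPM in minusFoxp3 libraries, a rise of 1.03 (SE 0.15, edgeR adjusted p = 0.0012). This call held in all 4 fits without a library, and DESeq2 called 3 members, against 3.82% of genes. Cd2 in active plusFoxp3 cells was 576 and 734 CPM at day 3, 673 and 703 CPM at day 7, and 817 and 891 CPM at day 14, while minusFoxp3 cells of these days stayed between 503 and 662 CPM. Its libraries of day 3 overlapped with the controls of that day, and those of days 7, 14 and 28 did not.

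**Figure D2:**
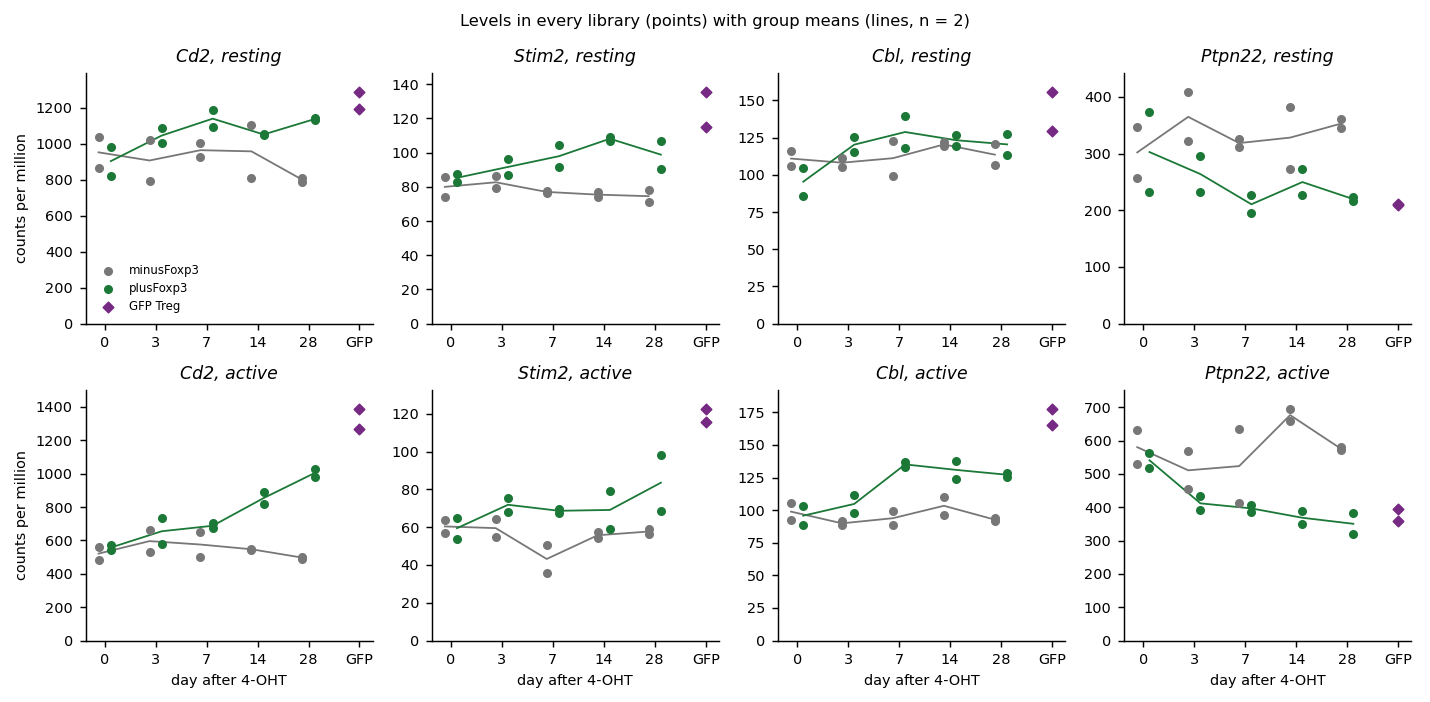
Level of Cd2, Stim2, Cbl and Ptpn22 in CPM by day after 4-hydroxytamoxifen (0, 3, 7, 14 and 28), with resting and active cells in separate panels, a point for each plusFoxp3 and minusFoxp3 library, lines through the means, and the GFP Treg libraries at the right. Active Cd2 reaches 980.5 and 1028 CPM at day 28 in plusFoxp3 cells against 1268 and 1386 CPM in GFP Treg cells, and Ptpn22 is lower in plusFoxp3 cells on all 4 treated days in both states.

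Taking the mean over the 4 treated days, 9 of the 39 members differed in active cells, 8 of them higher, against 6.22% of genes tested. They were 5 of 26 activators, all higher, 3 of 11 brakes, 2 higher and 1 lower, and 1 gene with both roles. Of all genes tested, 3.23% were called higher and 2.99% lower. The median of all members was 0.10 and that of all genes tested 0.00. Cd2 rose by 0.54 (SE 0.08, edgeR adjusted p = 2.3e-04), with 576 to 1028 CPM (median 776) in the 8 plusFoxp3 and 491 to 662 CPM (median 537) in the 8 minusFoxp3 libraries. Cbl, the ubiquitin ligase, rose by 0.41 (SE 0.07, edgeR adjusted p = 0.0011), with 97.5 to 138 CPM (median 127) against 88.2 to 110.1 CPM (median 92.8). Ptpn22 fell by 0.55 (SE 0.09, edgeR adjusted p = 0.0011), with 319 to 433 CPM (median 387) against 413 to 694 CPM (median 575). In each gene the ranges overlapped at their ends, and the difference had the same sign on all 4 days.

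Stim2 rose by 0.48 (SE 0.10, edgeR adjusted p = 0.0065), with 59.1 to 98.4 CPM (median 69.2) against 35.5 to 64.1 CPM (median 55.6). Cd247, the zeta chain, rose by 0.32 (SE 0.07, edgeR adjusted p = 0.012), with 525.97 to 660.3 CPM (median 579) against 427 to 589.5 CPM (median 461). These 5 genes, Cd2, Cbl, Ptpn22, Stim2 and Cd247, were called in all 16 fits that left out a library. The other calls were less firm. Lcp2 rose by 0.33 (edgeR adjusted p = 0.021), Ptprc by 0.35 (edgeR adjusted p = 0.030), Csk by 0.25 (edgeR adjusted p = 0.040) and Grb2 by 0.24 (edgeR adjusted p = 0.041), and they were lost in 7, 12, 13 and 14 of the 16 fits. Between 5 and 12 members were called over these fits. The count was 5 without active day 3 plusFoxp3 replicate 2, day 7 plusFoxp3 replicate 1, day 14 plusFoxp3 replicate 2 or day 28 minusFoxp3 replicate 1 or 2. Without active day 7 minusFoxp3 replicate 1, which stands apart, the called members were Cd2, Ptpn22, Cbl, Stim2, Lcp2 and Cd247. Markers of active cells (Cd44, Icos and Klrg1) summed to 1096 to 1734 CPM (median 1350) in these plusFoxp3 and 805 to 1306 CPM (median 927) in these minusFoxp3 libraries, and proliferation genes to 112 to 499 CPM (median 222) and 127 to 325 CPM (median 170.4). Their part in the differences was not tested.

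In resting cells the same mean called 4 members, against 4.73% of genes tested, and DESeq2 called 7, against 7.66%. Stim2 lay between 87.2 and 109 CPM (median 100.3) in the 8 plusFoxp3 and between 71.2 and 86.2 CPM (median 77.4) in the 8 minusFoxp3 libraries, with no overlap, and rose by 0.38 (SE 0.07, edgeR adjusted p = 0.0055). It was the only member of the 39, or 2.56%, whose libraries did not overlap, against 1.44% of genes. Ptpn22 fell by 0.51 (SE 0.11, edgeR adjusted p = 0.015), with 194 to 296 CPM (median 227) against 274 to 408 CPM (median 335). Grap2 fell by 0.35 (SE 0.09, edgeR adjusted p = 0.028), with 71.3 to 100.002 CPM (median 90.7) against 92.8 to 128 CPM (median 117). Cd2 rose by 0.30 (SE 0.08, edgeR adjusted p = 0.037), with 1002 to 1188 CPM (median 1091) against 790.0 to 1105 CPM (median 868). Stim2, Ptpn22 and Cd2 thus had the same direction in both states, and the 16 fits that left out a library called between 1 and 4 members, with Stim2 in all of them. The count was 1 without resting day 3 minusFoxp3 replicate 2, day 3 plusFoxp3 replicate 1 or day 7 plusFoxp3 replicate 1. It was 2 without resting day 7 minusFoxp3 replicate 1, day 14 plusFoxp3 replicate 1, day 28 minusFoxp3 replicate 2 or day 28 plusFoxp3 replicate 1. Proliferation genes summed to 86.7 to 374 CPM (median 266) in these plusFoxp3 and 60.9 to 108 CPM (median 76.0) in these minusFoxp3 libraries, and markers of active cells to 281 to 682 CPM (median 315) and 196 to 356 CPM (median 253), and their part in the differences was not tested.

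A test of the difference between the states, active minus resting, called 0 of the 39 members by edgeR, against 1.82% of genes tested. At an unadjusted p under 0.05 there were 6, against 12.9% of genes, and DESeq2 called 0, against 3.59%. The smallest p-values were those of Dgka, with a difference of 0.52 (SE 0.18, edgeR adjusted p = 0.16), Ppp3ca, with -0.38 (SE 0.14, edgeR adjusted p = 0.23), Cbl, with 0.25 (SE 0.10, edgeR adjusted p = 0.24), and Lck, with 0.18 (SE 0.08, edgeR adjusted p = 0.28). The members called in active cells are therefore not shown to respond differently in resting ones. Dgka was called in the fit that paired the states by number, with a difference of 0.56 (edgeR adjusted p = 0.026, against 3.14% of genes called), and was also the 1 member called without the count filter, against 2.23% of genes. Without active day 7 minusFoxp3 replicate 2, 1 member was called.

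**Figure D3:**
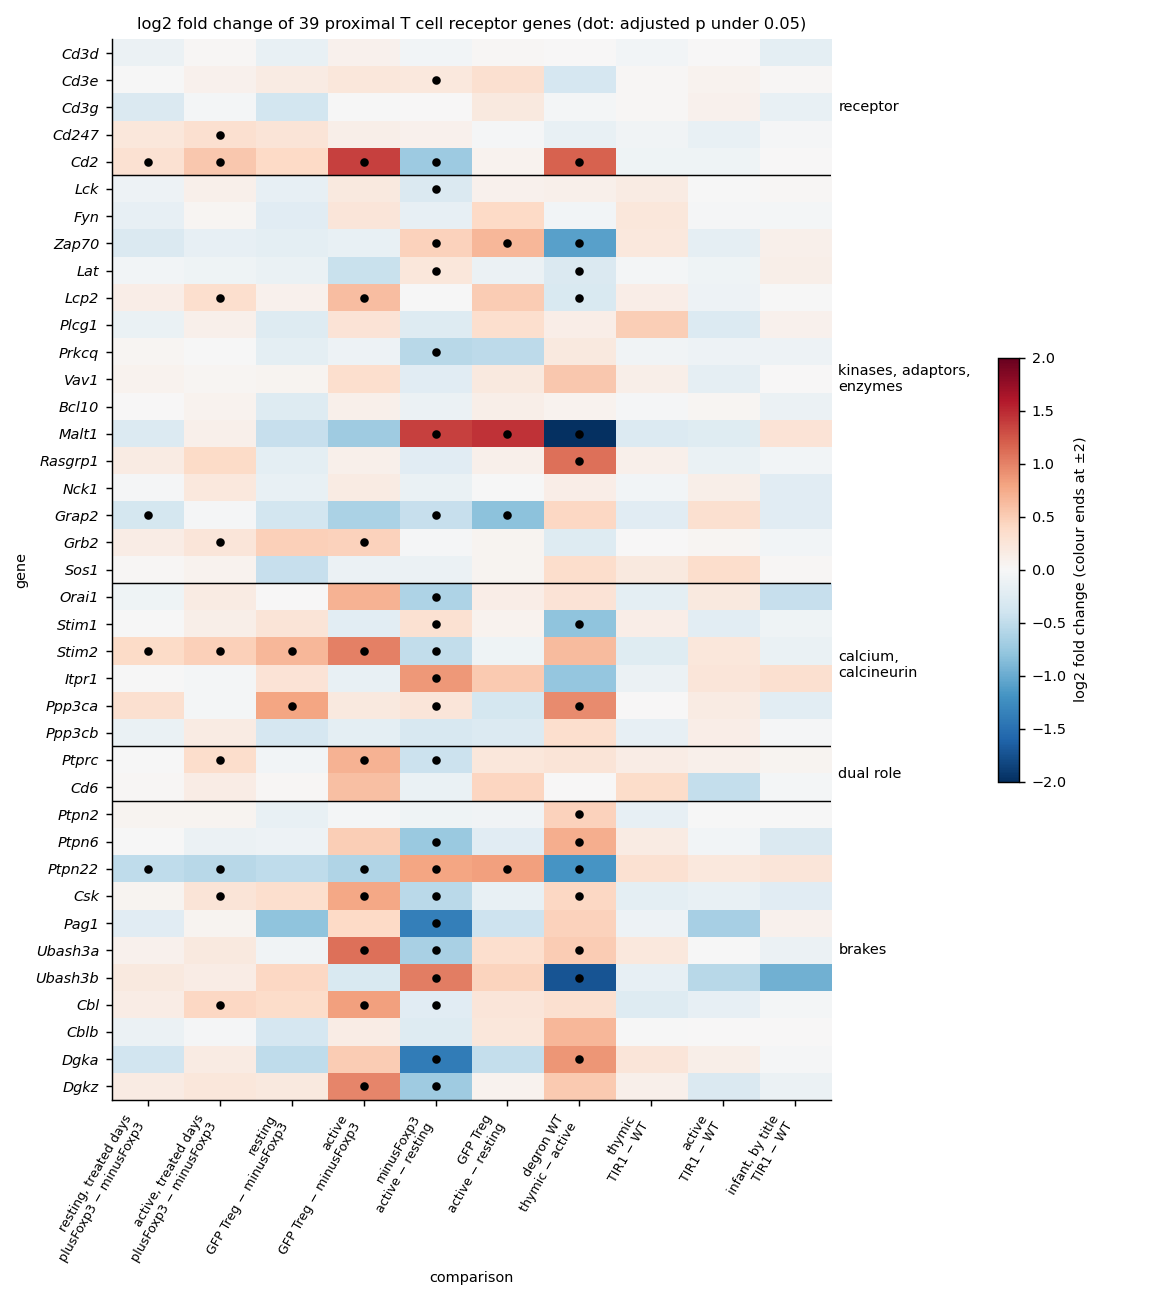
Log2 fold change of each of the 39 members (rows, grouped by role) in 10 comparisons (columns), colour from lower to higher, with a dot where edgeR's adjusted p is under 0.05. The active against resting column of minusFoxp3 cells holds 23 dots, the treated-day columns 9 in active and 4 in resting cells, and the TIR1 columns none.

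GFP Treg cells were compared with the day 0 minusFoxp3 libraries, which also serve as controls of the day 0 comparison. In active cells 10 of 39 members were called, 9 of them higher, against 10% of genes tested, and the brakes had a median of 0.49 against 0.00 over all genes. Of the 11 brakes, 4 were higher and 1 lower, and of the 26 activators, 4 were higher and 0 lower, where 5.21% of all genes were called higher and 4.79% lower. Cd2 was 1268 and 1386 CPM against 484 and 558 CPM, a rise of 1.37 (SE 0.15, edgeR adjusted p = 1.2e-05). Ubash3a was 296 and 298 CPM against 135 and 145 CPM, a rise of 1.11 (SE 0.19, edgeR adjusted p = 7.2e-04). Stim2 was 116 and 122 CPM against 56.8 and 63.9996 CPM, a rise of 1.00 (SE 0.20, edgeR adjusted p = 0.0027). In each, both GFP Treg libraries were above both controls by more than the spread within either pair.

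Cbl was 165 and 177 CPM against 92.4 and 105 CPM, a rise of 0.82 (SE 0.14, edgeR adjusted p = 6.6e-04). Csk was 236 and 240.2 CPM against 129 and 155 CPM, a rise of 0.77 (SE 0.14, edgeR adjusted p = 0.0015). Dgkz was 378 and 385 CPM against 170.3 and 226 CPM, a rise of 0.97 (SE 0.27, edgeR adjusted p = 0.028). Of the brakes that were lower in active than in resting minusFoxp3 cells, 4 (Cbl, Csk, Dgkz and Ubash3a) were higher in active GFP Treg than in active day 0 minusFoxp3 cells. The active day 0 minusFoxp3 libraries enter both comparisons, so these results are not independent. In the untreated active day 0 libraries labelled plusFoxp3, Ubash3a was 179 and 194 CPM and Dgkz 247 and 300 CPM. Both genes were thus above the same controls without Foxp3. Csk, at 149 and 185 CPM, and Cbl, at 88.6 and 103 CPM, overlapped with these controls. Ptpn22, which was higher in active minusFoxp3 cells, was 359 and 394 CPM against 529 and 632 CPM, a fall of 0.60 (SE 0.18, edgeR adjusted p = 0.045). Ptprc rose by 0.70 (edgeR adjusted p = 0.023), Lcp2 by 0.62 (edgeR adjusted p = 0.022) and Grb2 by 0.46 (edgeR adjusted p = 0.031). Cd2, Stim2, Csk, Ubash3a and Cbl stayed called whichever of the 4 libraries was left out, when between 5 and 8 were called. There were 5 without active day 0 minusFoxp3 replicate 1 or active GFP Treg replicate 1, and 6 without active GFP Treg replicate 2.

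In resting cells 2 members were called, against 2.91% of genes tested, and DESeq2 called 4, against 5.05%. Ppp3ca, a catalytic subunit of calcineurin, was 92.9 and 96.5 CPM in GFP Treg and 51.5 and 58.9 CPM in day 0 minusFoxp3 libraries, a rise of 0.79 (SE 0.18, edgeR adjusted p = 0.020). Stim2 was 115 and 135 CPM against 74.1 and 85.9 CPM, a rise of 0.66 (SE 0.15, edgeR adjusted p = 0.023). Both calls were lost when only the 4 compared libraries entered the fit, and when resting day 0 minusFoxp3 replicate 1 or resting GFP Treg replicate 1 was left out; 1 remained without resting GFP Treg replicate 2. Against the day 28 plusFoxp3 libraries, GFP Treg cells had 0 called members in either state by edgeR, against 0.0341% of genes in resting and 2.01% in active cells. At an unadjusted p under 0.05 there were 1 and 8 members, against 3.96% and 11.2% of genes, and DESeq2 called 0 and 1, against 0.283% and 3.94%. Among the active values, Cbl was 165 and 177 CPM in GFP Treg against 126 and 129 CPM at day 28 (log2 difference 0.43, SE 0.14, edgeR adjusted p = 0.15), and Cd2 was 1268 and 1386 CPM against 980.5 and 1028 CPM (0.40, SE 0.15, edgeR adjusted p = 0.26). Neither gene's libraries overlapped, and neither difference passed the test; 1 member was called without active GFP Treg replicate 2.

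The paralogues Ubash3a and Ubash3b, which bind ubiquitin and dampen receptor signalling, had opposite state differences, and their ratio was followed through all libraries. Ubash3a lies at chr17:31426847-31465866 and Ubash3b at chr9:40922394-41072993 in GRCm39. On the log2 scale of CPM per kb, Ubash3b over Ubash3a lay between -1.86 and -0.77 (median -1.37) in the 10 resting minusFoxp3 libraries and between -0.11 and 0.76 (median 0.34) in the 10 active ones. In GFP Treg cells it was -1.09 and -0.81 in resting and -1.05 and -0.65 in active libraries, which overlapped. Active plusFoxp3 libraries of days 3, 7 and 14 lay between 0.29 and 0.55, and those of day 28 at -0.23 and -0.15. The untreated active day 0 libraries labelled plusFoxp3, which lack Foxp3, were at -0.30 and 0.00, also below the active day 0 minusFoxp3 libraries at 0.50 and 0.63. Both active GFP Treg ratios were thus below all active minusFoxp3 ones, and the higher of them was just above the resting minusFoxp3 range. In the degron experiment the ratio was -2.34 to -1.26 in thymic WT, 0.28 to 0.99 in active WT and -1.98 to -0.91 in infant titled WT libraries. No test was run on this ratio, which was chosen after its genes' values were seen.

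**Figure D4:**
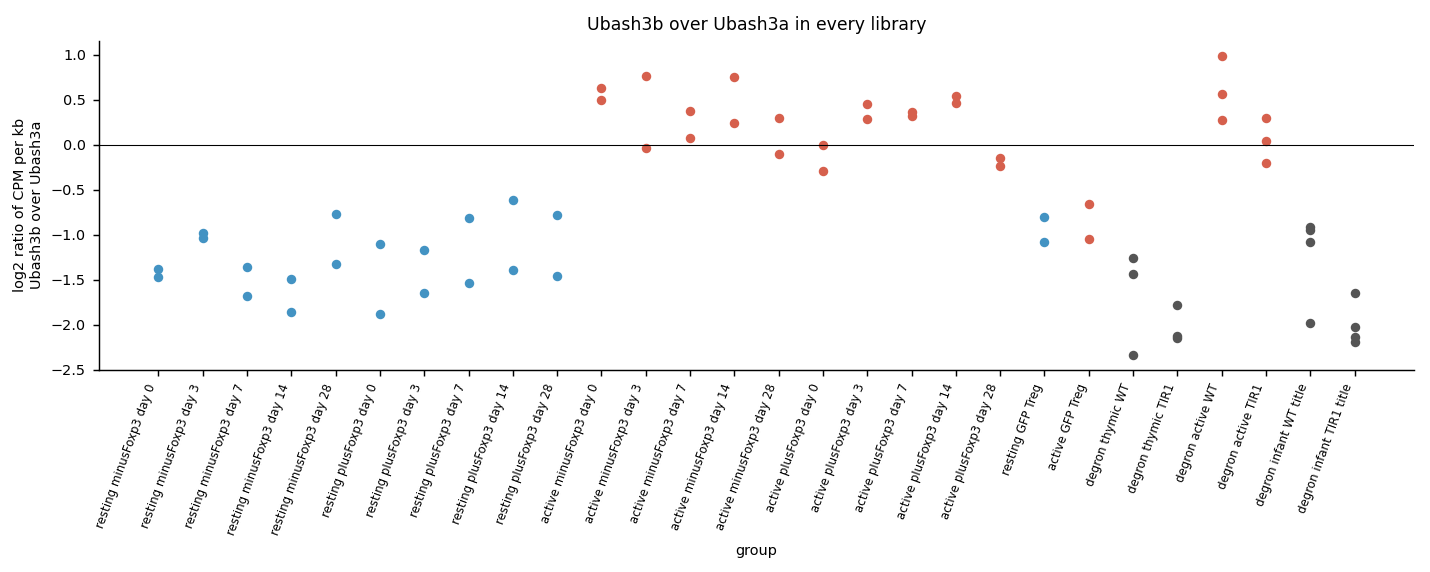
Log2 ratio of Ubash3b to Ubash3a, each in CPM per kb, with a point for each library by group (resting cells in blue, active cells in red, thymic and infant cells in grey). Active minusFoxp3 libraries lie between -0.11 and 0.76 and resting ones between -1.86 and -0.77, and the 2 active GFP Treg libraries, at -1.05 and -0.65, lie below every active minusFoxp3 library.

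The calcium sensors Stim1 and Stim2 gave a similar view. The log2 ratio of Stim1 to Stim2 in CPM per kb was -1.15 to -0.45 (median -0.91) in resting and -0.48 to 0.13 (median -0.01) in active minusFoxp3 libraries, which overlapped at their ends. It was -1.64 and -1.34 in resting and -1.38 and -1.28 in active GFP Treg libraries, and -1.54 and -1.32 in the resting day 28 plusFoxp3 libraries. All 4 GFP Treg libraries were below all 20 minusFoxp3 ones. In active cells the day 28 plusFoxp3 libraries did not reach the GFP Treg ratio. Their Stim1 was 107 and 118 CPM, against 95.2 and 96.2 CPM in active GFP Treg cells. Their Stim2 was 68.6 and 98.4 CPM, against 116 and 122 CPM. Neither gene's difference passed the test. The log2 ratio of Cblb to Cbl was -0.48 to 0.57 in resting and -0.47 to 0.54 in active minusFoxp3 libraries, and between -0.81 and -0.56 in all 4 GFP Treg libraries. Neither ratio was tested, and both were chosen after values were seen.

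The degron groups first allow the 2 adult Treg stages with tagged Foxp3 and no TIR1 to be compared. Between thymic WT and active WT libraries, 15 of 39 members were called, 8 higher in thymus and 7 lower, against 23% of genes tested, 9.22% higher and 13.8% lower. Malt1 was 26.7, 43.4 and 47.7 CPM in thymic and 135, 171 and 188 CPM in active libraries, a fall of 2.16 (SE 0.24, edgeR adjusted p = 4.7e-05). Cd2 was 2340.4, 2344 and 2402 CPM against 828, 899.8 and 1217 CPM, a rise of 1.17 (SE 0.13, edgeR adjusted p = 4.4e-05). Zap70 was 214, 218 and 235 CPM against 390.3, 441 and 495 CPM, a fall of 1.08 (SE 0.11, edgeR adjusted p = 1.8e-05). The 3 thymic libraries did not overlap with the 3 active ones in any of these genes. Rasgrp1, which activates Ras, rose by 1.10 (SE 0.13, edgeR adjusted p = 7.4e-05), with 491 to 521 CPM against 183 to 276 CPM.

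Among the brakes, Ubash3b was 42.3, 73.7 and 77.5 CPM in thymic and 177, 189 and 239 CPM in active libraries, a fall of 1.73 (SE 0.23, edgeR adjusted p = 1.7e-04). Ptpn22 was 186, 239 and 259 CPM against 435, 475 and 545 CPM, a fall of 1.18 (SE 0.14, edgeR adjusted p = 7.7e-05). Dgka was 1005, 1012 and 1042 CPM against 407, 554 and 589.6 CPM, a rise of 0.89 (SE 0.13, edgeR adjusted p = 2.7e-04). As between active and resting minusFoxp3 cells, Ubash3b, Ptpn22 and Malt1 were higher, and Dgka lower, in active than in thymic cells. Ptpn6 rose by 0.73 (SE 0.10, edgeR adjusted p = 2.8e-04), Ubash3a by 0.51 (SE 0.11, edgeR adjusted p = 0.0041), Ptpn2 by 0.45 (SE 0.12, edgeR adjusted p = 0.014) and Csk by 0.41, so 5 of 11 brakes were higher in thymus and 2 lower. Ppp3ca rose by 0.94 and Stim1, Lcp2 and Lat fell by 0.80, 0.31 and 0.29. Cd2, Zap70, Malt1, Rasgrp1, Ppp3ca, Ptpn6, Ptpn22, Ubash3a, Ubash3b and Dgka stayed called whichever of the 6 libraries was left out.

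Degradation of Foxp3 in adults left no member past the test. In thymic cells 0 of 39 were called by edgeR, against 0% of genes tested; 8 had an unadjusted p under 0.05, against 7.37% of genes, and DESeq2 called 4 (Fyn, Plcg1, Dgka and Cd6) against 1.1% of genes. Cd6 was 1011, 1032 and 1141 CPM in TIR1 and 760.0, 850.4 and 856 CPM in WT libraries, a log2 difference of 0.36 (SE 0.07, edgeR adjusted p = 0.45). Plcg1, the phospholipase, was 132, 141 and 156 CPM against 96.0, 99.96 and 108 CPM, a difference of 0.49 (SE 0.10, edgeR adjusted p = 0.45). Dgka was 1159.9, 1198 and 1279 CPM against 1005, 1012 and 1042 CPM, a difference of 0.25 (SE 0.05, edgeR adjusted p = 0.45). All 3 TIR1 libraries were above all 3 WT libraries in each of these genes. Libraries did not overlap for 9 of the 39 members, all higher in TIR1, or 23.1%, against 13% of genes in either direction and 6.77% higher. Fyn, a Src-family kinase beside Lck, had a difference of 0.22 (SE 0.06, edgeR adjusted p = 0.49).

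In active adult cells 0 members were called by edgeR, against 0% of genes tested, with 2 at an unadjusted p under 0.05, against 4.62% of genes, and 0 by DESeq2, against 0.144%. Libraries did not overlap for 3 of 39, or 7.69%, against 10.1% of genes. Ubash3b was 121, 128 and 169.8 CPM in TIR1 and 177, 189 and 239 CPM in WT libraries, with no overlap and a log2 difference of -0.56 (SE 0.18, edgeR adjusted p = 1.0). Cd6 was 432 to 694 CPM against 585 to 898 CPM, with overlap and a difference of -0.47 (SE 0.21, edgeR adjusted p = 1.0). Pag1 and Grap2 had differences of -0.67 and 0.31 with overlapping libraries. The difference of the TIR1 effect between thymus and active cells called 0 members by edgeR, against 0% of genes, with 3 at an unadjusted p under 0.05, against 6.66%, and 0 by DESeq2, against 0.481%. Cd6 had the smallest p, with a difference of 0.84 (SE 0.23, edgeR adjusted p = 0.67).

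In infant cells 0 members were called by edgeR with all 8 libraries, against 0.0185% of genes; 8 had an unadjusted p under 0.05, against 17.4% of genes, and DESeq2 called 4 (Grap2, Orai1, Ptpn6 and Ubash3b) against 6.83% of genes. Ubash3b was 39.7, 43.7, 46.8 and 51.3 CPM in titled TIR1 and 49.9, 97.4, 104 and 105 CPM in titled WT libraries, a difference of -0.95 (SE 0.21, edgeR adjusted p = 0.094). Orai1 was 73.4, 80.6, 85.6 and 89.7 CPM against 91.0, 121, 121 and 126 CPM, a difference of -0.46 (SE 0.11, edgeR adjusted p = 0.094). The lowest titled WT value was that of replicate 4 in both genes. Ptpn6 was 317 to 339.9 CPM against 353 to 447 CPM, a difference of -0.29 (SE 0.08, edgeR adjusted p = 0.11). Grap2 was 63.99 to 65.7 CPM against 70.4 to 80.6 CPM, a difference of -0.23 (SE 0.07, edgeR adjusted p = 0.14). Libraries did not overlap for 4 of 39 members, all lower in titled TIR1, or 10.3%, against 8.73% of genes in either direction and 4.81% lower.

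Without titled WT replicate 4, 7 members were called, 1 higher and 6 lower, against 11% of genes, 6.55% higher and 4.44% lower. Ubash3b fell by 1.15 (SE 0.10, edgeR adjusted p = 3.1e-05), Orai1 by 0.55 (SE 0.08, edgeR adjusted p = 0.0012) and Ptpn6 by 0.36 (SE 0.07, edgeR adjusted p = 0.0046), and Malt1 rose by 0.42 (SE 0.09, edgeR adjusted p = 0.010). Csk, Ppp3ca and Grap2 fell by 0.30, 0.31 and 0.27. All of these are titled TIR1 against titled WT and carry the uncertain direction given above. Proliferation genes summed to 587 to 904 CPM in titled TIR1 and 197 to 561 CPM in titled WT libraries, and their part in the differences was not tested.

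**Figure D5:**
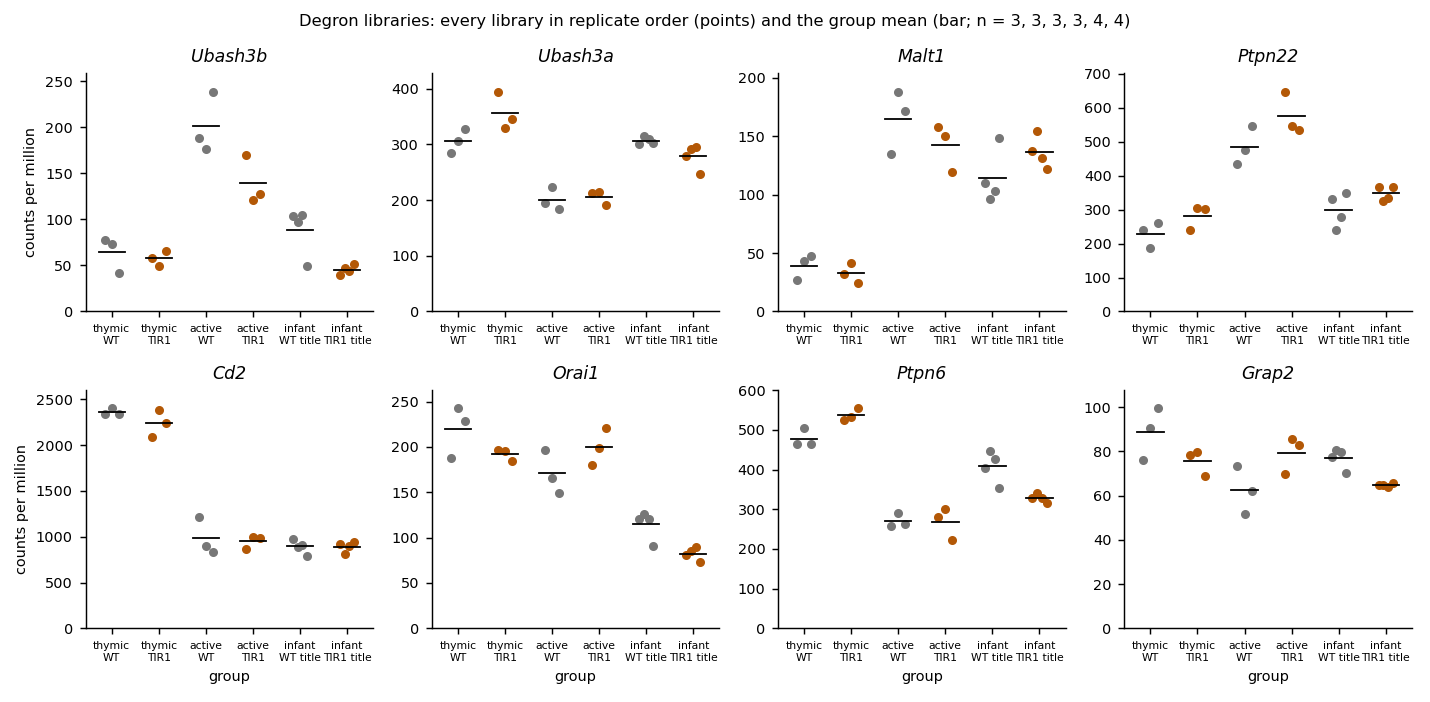
Level of Ubash3b, Ubash3a, Malt1, Ptpn22, Cd2, Orai1, Ptpn6 and Grap2 in CPM in the 6 degron groups, with a point for each library (3 in adult groups, 4 in infant groups) and a bar at the group mean. Thymic and active cells differ in Malt1, Ptpn22, Ubash3b and Cd2, while edgeR called no member in a TIR1 group against its WT group with all libraries in the fit; DESeq2 called 4 members in thymus and 4 in infants, of which Ubash3b, Orai1, Ptpn6 and Grap2 in infants are plotted.

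A further 50 genes of the pathway, 28 activators and 22 brakes, were counted as a frame, of which 49 were tested in the reversible-allele fits. Between active and resting minusFoxp3 cells 35 of them were called, 17 higher, against 37.9% of all genes tested, 19.6% higher and 18.3% lower. Of the other brakes 10 were higher and 5 lower, so the direction of the 11 member brakes was not that of the wider list. Trat1, an adaptor that associates with the receptor, fell by 3.25 (SE 0.16, edgeR adjusted p = 4.3e-15) and Tespa1 by 1.41 (SE 0.07, edgeR adjusted p = 4.5e-15), while Ptpn7, a phosphatase of MAP kinases, rose by 1.33 (SE 0.08, edgeR adjusted p = 6.6e-14). Over the treated days 14 were called in active cells, against 6.22% of all genes, with Grap, an adaptor related to Grap2, up by 0.55 (SE 0.07, edgeR adjusted p = 1.1e-04). In resting cells 6 were called, against 4.73% of all genes, with the phosphatase Dusp6 down by 0.86 (SE 0.13, edgeR adjusted p = 9.4e-04). Both of these counts include Cd4, which was lower by 0.80 in active and 0.81 in resting plusFoxp3 cells. Cd4-creERT2 occupies this locus in the plusFoxp3 animals. In active GFP Treg against day 0 minusFoxp3 cells 16 were called, against 10% of all genes, with Trat1 up by 3.70 (SE 0.43, edgeR adjusted p = 1.8e-05). Between thymic and active WT cells 24 were called, against 23% of all genes, with Nfatc1 down by 2.18 (SE 0.22, edgeR adjusted p = 2.0e-05). None was called in the TIR1 comparisons, against 0% of all genes in thymic and active cells and 0.0185% in infants. Tnfaip8l2, usually described as an inhibitor, stood among the activators of this list.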

How the data were processed

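RNA sequencing libraries (SMART-Seq v4, polyA-selected, not strand-specific) were deposited as raw read counts per gene. Per the labels and the study's methods, the authors aligned reads to mm39 (the processing notes name Bowtie2, the methods STAR) and counted them with featureCounts (2.0.3 in the file headers, another version through Rsubread in the methods) against GENCODE M30; read pairs were counted, in the degron libraries with a minimum mapping quality of 30. The counts were analysed here as deposited, and no count column was left unused. Groups came from the labels; adult degron files follow the library named in the header, which contradicts their attachment. Genes that averaged 10 or more read pairs across a fit's libraries were tested in R 4.3.3 with edgeR 4.0.16 (TMM, robust quasi-likelihood, Benjamini-Hochberg adjusted p under 0.05). Separate fits were made for resting and active reversible-allele libraries with GFP Treg cells, for both together where states were compared, and for thymic, active and infant degron libraries. SE is the log2 fold change divided by the square root of F. All 39 members were tested in every comparison. CPM are counts scaled to the library total, and CPM per kb divide by exon length. Named members were those called, at most 12 in a comparison, or the 4 with the smallest p where none was called; at most 4 called genes of the wider pathway were named in a comparison, by smallest adjusted p. The library checks, ratios, promoters printed and day-by-day values of Cd2 were chosen after values were seen. Alternatives were library totals, size factors, no count filter, DESeq2 1.42.0, the compared libraries only, the replicate block, file attachment, pairs of resting and active libraries (added after the data were seen) and leaving out each library. Scripts were tested on simulated counts. The lowest chi-square per gene between replicates was 17.3 over 46 pairs, so no library was counted as a duplicate. Promoters were RefSeq windows of GRCm38.p6, 250 bases upstream, and 32 members had one; Ppp3ca, Pag1, Cd2, Itpr1, Malt1, Ptpn2 and Cd6 had none. Intervals and errors do not separate molecules from PCR copies. The members and lists were chosen with earlier results of these data known.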

Additional observations from a re-analysis of the deposited data

Results flagged for a closer look

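Of the 78 member-by-group checks in the infant groups of 4 libraries, 10 had a library far from the others; chance flags about 1 in 20 groups. In titled TIR1 replicate 4, Zap70 was 325 CPM (260.6 to 270 CPM in the others), Lat 550.1 CPM (403 to 424), Dgkz 859.8 CPM (683 to 709.8) and Ptpn2 89.9 CPM (121 to 123). In titled TIR1 replicate 3, Pag1 was 55.5 CPM against 70.1 to 73.0 CPM. In titled WT replicate 4, Ubash3b was 49.9 CPM (97.4 to 105), Orai1 91.0 CPM (121 to 126), Ppp3ca 83.4 CPM (109.9 to 115) and Lcp2 528 CPM (542 to 545). In titled WT replicate 2, Prkcq was 536 CPM against 577 to 583 CPM.

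The step from resting to active differed between GFP Treg and day 0 minusFoxp3 cells for 3 members by a test of the difference: Cd2 by 0.95 on the log2 scale, Pag1 by 1.17 and Ubash3a by 1.14, with edgeR adjusted p-values of 0.014, 0.035 and 0.029. Each rests on 2 libraries a group.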

How the results depend on the processing

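DESeq2 called 1 member at resting day 14, 7 over the resting treated days, 4 in resting GFP Treg against day 0 minusFoxp3 cells, 2 at active day 7, 2 at active day 14, 3 at active day 28, 1 in active GFP Treg against day 28 plusFoxp3, 4 in thymic TIR1 and 4 in infant titled TIR1 cells. Without the count filter there were 6 at active day 7, 2 at active day 14, 2 at active day 28, 1 in the state difference of the Foxp3 effect and 1 in infants. With library totals there were 2 at active day 28, and with the compared libraries only 0 in resting GFP Treg cells. Replicate numbers were shared between groups, but same-numbered libraries of different genotypes or days did not all deviate together (median correlation 0.10 in resting, 0.04 in active, -0.01 in thymic, -0.11 in active degron and -0.03 in infant libraries). Resting and active libraries of the same group and number did so in minusFoxp3 (correlation 0.17 to 0.35) and GFP Treg cells (0.27) but not in every plusFoxp3 group (-0.04 to 0.36), nor did thymic and active degron libraries (0.00 to 0.05). A replicate block by pair of states, chosen after seeing the data, gave 1 member, Dgka, in the state difference of the Foxp3 effect. With the replicate block there was 1 at resting day 28, 8 over the resting treated days, 2 at active day 14, 2 at active day 28 and 1, Dgka, in the state difference.

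Leaving out each library gave 0 to 10 members at resting day 0, 1 to 4 over the resting and 5 to 12 over the active treated days, 0 to 15 at active day 7, 0 to 0 at active day 14, 0 to 2 in resting and 5 to 8 in active GFP Treg against day 0 minusFoxp3, 0 to 1 in active GFP Treg against day 28 plusFoxp3, 0 to 2 between the states of GFP Treg, 0 to 1 and 0 to 2 in the state differences of the Foxp3 effect and of GFP Treg, and 0 to 7 in infants. With the adult files taken as attached, the values changed sign: in thymus Cd6 was -0.36, Plcg1 -0.49, Dgka -0.25 and Fyn -0.22; in active cells Ubash3b was 0.56, Cd6 0.47, Pag1 0.67 and Grap2 -0.31; and in their difference Cd6 was -0.84, Zap70 -0.40, Grap2 0.55 and Plcg1 -0.76. Among single members and settings, 1532 values kept direction and side of the threshold, 148 were no longer called, 31 became called and 12 reversed. The cause was not tested. Every member had at least 240 read pairs in each library, and whether depth limits the day comparisons was not tested.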
